A study of Mus musculus with 7 samples.

Results

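Rhox genes, the reproductive homeobox genes of the mouse X chromosome, were followed in mini-oocytes. The 6 genes Rhox1, Rhox5, Rhox6, Rhox9, Rhox10 and Rhox13 were taken by their symbols from the 42 Rhox genes among the 55364 genes listed. They were chosen for the loss of Rhox6 and Rhox9 between day 7 and day 21. Their day 7 and day 21 levels are therefore given as a description with no test, and only the comparison of the 2 factor sets at day 21 was tested. The choice did not set these groups against each other. It did use their libraries, and it favored low values of Rhox6 and Rhox9 in both.

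Mini-oocytes are oocyte-like cells that form when mouse embryonic stem cells (mESCs) are forced to express transcription factors of the oocyte. The 7 libraries fall into 4F-mini-oocytes at day 7 (n = 2), 4F-mini-oocytes at day 21 (n = 3) and 8F-mini-oocytes at day 21 (n = 2). All 7 libraries come from cells that carry Nobox, Figla, Tbpl2 and Lhx8 as transgenes (4F), and the 8F cells added Stat3, Dynll1, Sub1 and Sohlh1 and carry an Npm2-mCherry reporter. Every library derives from BVSC H18, a female mESC line of hybrid 129/C57BL6 strain, and was grown without ovarian somatic cells, in medium with SCF. The transgenic factors were stabilized by Shield-1, which was left out of fresh medium from day 12, so day 7 cells were taken with Shield-1 present and day 21 cells after its withdrawal. A day 7 sample pooled 1000 cells and a day 21 sample 10 cells. Day, Shield-1 and the number of cells changed together and cannot be told apart. There is no 8F library at day 7, so 8F levels were set against those of 4F-mini-oocytes at day 7. In that comparison the factor set and the line differ as well. The labels do not state whether replicates come from separate inductions, so p-values measure the spread between these samples only. Libraries of mESCs were not analyzed here.

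Rhox genes encode homeodomain transcription factors of the paired-like class, and they are known for expression in the testis, the ovary, the placenta and germ cells. The mouse cluster has expanded by duplication, and DNA methylation silences many of its genes in the somatic lineages of the embryo. Rhox5, also called Pem, is the founding member and is known from Sertoli cells. Rhox6 and Rhox9, also called Psx1 and Gpbox, are close relatives known from the placenta and from primordial germ cells.

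Levels are given as TPM, the usual measure of transcript abundance, in which reads are divided by exon length and each library is scaled to a common total. The smallest TPM differences between genes correspond to single reads, from which a depth of 9506135 to 18027834 reads per library was worked out. The level that 3 reads would give was taken as the floor of a library, which reflects read depth and not the sampling of cells. For a library with no read of a gene, a fall is printed as a bound against that level, and intervals at low counts are exact Poisson intervals at 95%, which cover counting error only. Oocyte identity was checked with 10 marker genes, all of which were past a false discovery rate (FDR) of 0.05 and higher at day 21 than at day 7 in 4F-mini-oocytes, with summed levels of 10597 to 13318 TPM at day 7, 44286 to 48528 TPM in 4F and 33062 to 33623 TPM in 8F at day 21.

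The 42 Rhox genes lie at chrX:37213804-38306028 (mm10), a stretch of 1092.2 kb, and 34 of them are annotated as protein coding. Rhox1 (ENSMUSG00000071773.4) opens the cluster at chrX:37213804-37222258 on the minus strand. Rhox5 (ENSMUSG00000095180.8) lies at chrX:37804842-37808876 and Rhox6 (ENSMUSG00000006200.3) at chrX:37826910-37829857, both on the plus strand. Rhox9 (ENSMUSG00000068048.8) lies at chrX:37899097-37901770 on the minus strand. Rhox10 (ENSMUSG00000053909.8) at chrX:38066475-38071691 and Rhox13 (ENSMUSG00000050197.5) at chrX:38121219-38129967 lie farther along on the plus strand. None of the 6 genes overlaps another gene annotated in GENCODE vM21 on either strand, so no overlap there makes the unstated strand option of the counting step bear on them. The authors counted over vM25. For Rhox6, 3114.5 reads were recovered in day 7 replicate 2, so a read may have been split with another gene.

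Rhox6 and Rhox9, whose loss chose the set, are also the members most alike in sequence, which matters because the authors counted uniquely mapped reads. Their coding sequences have 681 bases each, of which 617 are identical (90.6%) and 64 differ, while the other 14 pairs of members were 56.9% to 67.1% identical over the aligned bases. The longest run that both share has 161 coding bases. It covers coding positions 167 to 327, counted from the first base of the start codon, at chrX:37827450-37827610 in Rhox6 and at chrX:37901167-37901327 in Rhox9. The sequencing was paired-end, and a read pair that falls wholly inside this run matches both genes and could not be counted as unique. The sequence, from the GENCODE vM21 transcripts (mm10), reads 5′ to 3′ in the direction of the transcript:
Rhox6 and Rhox9, coding 167 to 327: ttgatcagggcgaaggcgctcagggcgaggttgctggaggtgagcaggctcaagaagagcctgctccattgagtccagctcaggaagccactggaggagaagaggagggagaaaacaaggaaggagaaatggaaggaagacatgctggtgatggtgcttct

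Reads that tell the genes apart come from stretches such as coding positions 343 to 462, the 120 coding bases in which they differ most. Of these, 24 differ, and they are printed in capitals. The stretch lies at chrX:37827626-37827745 in Rhox6 and at chrX:37901032-37901151 in Rhox9:
Rhox6, coding 343 to 462: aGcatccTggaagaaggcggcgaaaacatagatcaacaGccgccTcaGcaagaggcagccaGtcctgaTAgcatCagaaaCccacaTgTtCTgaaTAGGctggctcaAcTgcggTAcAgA
Rhox9, coding 343 to 462: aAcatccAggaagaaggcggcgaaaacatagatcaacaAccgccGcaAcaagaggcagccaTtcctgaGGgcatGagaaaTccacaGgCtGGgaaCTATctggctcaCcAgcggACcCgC

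Over whole transcripts, 83.5% of the 50-base stretches of Rhox6 and 93.7% of those of Rhox9 were found in no other gene, and the remainder was shared between these 2 genes alone. With stretches of 150 bases the shares were 98.6% and 99.5%. Rhox1, Rhox5, Rhox10 and Rhox13 had 100% of their 50-base stretches to themselves. The rest of the cluster differed in this respect. A median of 19.2% was private among the 9 Rhox3 genes, 11.0% among the 8 Rhox4 genes and 40.4% among the 9 Rhox2 genes. A level of 0 in those copies therefore carries less information than a level of 0 in any of the 6 genes described.

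**Figure D1:**
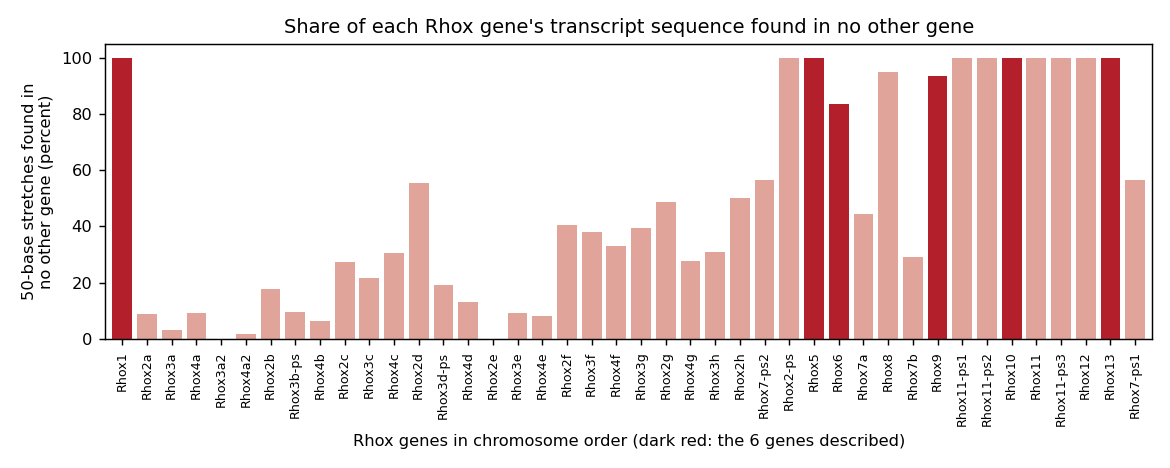
Bars give, for each of the 42 Rhox genes in chromosome order, the percent of 50-base stretches of its annotated transcripts that occur in no other gene's transcripts. Rhox1, Rhox5, Rhox10 and Rhox13 stand at 100%, Rhox6 at 83.5% and Rhox9 at 93.7%, while the Rhox2, Rhox3 and Rhox4 copies between Rhox1 and Rhox5 are mostly far lower.

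Rhox6 was the most abundant Rhox gene at day 7 and was not detected at day 21. Its level was 321 TPM in replicate 1 and 591 TPM in replicate 2 of the day 7 4F-mini-oocytes, from 1274 and 3114.5 recovered reads. Not 1 read of Rhox6 was found in any of the 3 4F libraries and the 2 8F libraries at day 21. The day 7 mean of 456 ± 190 TPM (SD, n = 2) was at least 644-fold above the level of 3 reads in every day 21 library, and up to 895-fold above it in the deepest one. The lower day 7 library alone was at least 454-fold above that level. On the log2(TPM + 1) scale the difference was -8.77 in 4F and -8.77 in 8F against day 7, and both comparisons share the day 7 libraries.

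Rhox9, the near relative of Rhox6, was lost as well. At day 7 it had 71.3 TPM in replicate 1 and 90.9 TPM in replicate 2, from 696 and 1181 reads. At day 21 it had no read in the 3 4F libraries and in 8F replicate 1, and 3 reads in 8F replicate 2, a level of 0.213 TPM (0.0440 to 0.624). The day 7 mean of 81.1 ± 13.9 TPM (SD, n = 2) was at least 282-fold above the level of 3 reads in each of the 4 libraries without a read. Against the 3 reads of 8F replicate 2 the ratio was 380, with a counting interval of 130 to 1843. All 5 day 21 libraries lay below both day 7 libraries.

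The distance between Rhox6 and Rhox9 at day 7 depended on the length by which reads were divided. Rhox6 stood 4.51-fold above Rhox9 in replicate 1 and 6.50-fold in replicate 2 when levels were compared as TPM, and 1.83-fold and 2.64-fold when reads were compared. The annotated exons of Rhox9 add up to 2488 bases, because a transcript of 2422 bases is annotated beside the 882-base transcript, and those of Rhox6 to 1010 bases. Which Rhox9 transcript was present was not tested, since the table gives 1 value per gene. Rhox6 was above Rhox9 in both libraries on both scales.

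Rhox5 followed the same course with a trace left in 2 libraries. Its level at day 7 was 118 TPM in replicate 1 and 140 TPM in replicate 2, from 350 and 551 reads. At day 21, 4F replicate 1 kept 5 reads, a level of 1.42 TPM (0.460 to 3.30), and 8F replicate 1 kept 3 reads, a level of 0.683 TPM (0.141 to 2.00), while the other 3 libraries had none. Both day 7 libraries stood far above all 5 day 21 libraries. The day 7 mean of 129 ± 15.3 TPM (SD, n = 2) was 91.2-fold above 4F replicate 1, with a counting interval of 39.1 to 281, and at least 136-fold above the level of 3 reads in the libraries without a read. The differences on the log2(TPM + 1) scale were -6.59 in 4F and -6.64 in 8F against day 7.

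Rhox13, a gene known from male germ cells, was low and uneven at day 7. It had 19.5 TPM from 67 reads in replicate 1 but only 1.75 TPM (0.755 to 3.45) from 8 reads in replicate 2. All 5 day 21 libraries had no read. The day 7 mean of 10.6 ± 12.5 TPM (SD, n = 2) was at least 13.0-fold above the level of 3 reads in each of them, but the lower day 7 library alone was above that level by only 2.14-fold to 2.98-fold. Its log2(TPM + 1) difference from day 7 was -2.91 in both factor sets, and without day 7 replicate 1 it was -1.46.

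Rhox1 and Rhox10 remained detectable in every library. Rhox1 had 13.0 and 14.7 TPM at day 7, 10.4, 14.6 and 5.40 TPM in the 4F libraries at day 21, and 11.1 and 5.21 TPM in the 8F libraries, from 20 to 68 reads. The 4F libraries at day 21 overlapped with those of day 7, and both 8F libraries lay below them. On the log2(TPM + 1) scale the level of Rhox1 differed from day 7 by -0.51 in 4F and by -0.78 in 8F, where the SDs within groups were 0.12, 0.65 and 0.68 at day 7, in 4F and in 8F at day 21.

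Rhox10, which is known for its part in forming spermatogonial stem cells, was the only member with a higher mean at day 21. It had 3.01 TPM from 9 reads and 12.0 TPM from 48 reads at day 7. In the 4F libraries at day 21 it had 42.8, 0.905 and 35.0 TPM, and in the 8F libraries 30.8 and 16.0 TPM. At day 21, 4 of the 5 libraries, with 69 to 153 reads, lay above both day 7 libraries, and 4F replicate 2, with 3 reads (0.187 to 2.64 TPM), lay below both. The log2(TPM + 1) difference from day 7 was 1.00 in 4F and 1.69 in 8F, and that in 4F was 2.46 without replicate 2. In that library Rhox1, the other detected member, had its highest level at day 21.

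**Figure D2:**
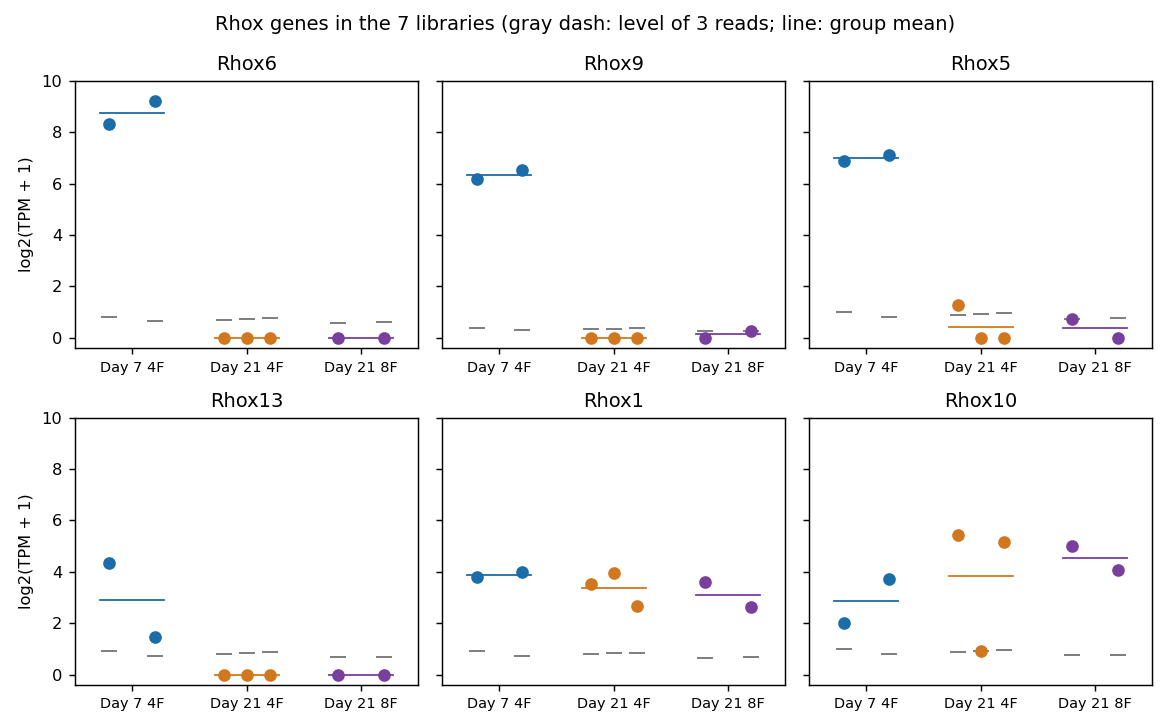
Each panel shows log2(TPM + 1) of a Rhox gene in each of the 7 libraries by group, with a line at the group mean and a gray dash at the level of 3 reads in that library. Rhox6, Rhox9, Rhox5 and Rhox13 are above the dash in both day 7 libraries and at or near 0 at day 21, whereas Rhox1 stays between 5.21 and 14.7 TPM and Rhox10 spreads from 0.905 to 42.8 TPM.

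The leading Rhox gene thus changed between the days. The summed level of the 6 genes was 546 and 850 TPM at day 7, of which Rhox6 made up 58.8% and 69.5%. At day 21 the sum was between 15.5 and 54.6 TPM, and Rhox10 was the highest member in 4 libraries, with 72.4% to 86.6% of the sum. In 4F replicate 2 it was Rhox1, with 94.2%. All 5 day 21 libraries were below both day 7 libraries for 4 of the 6 members, and that was so for 19.3% of all genes tested; since the members were chosen on these libraries, nothing is read from the difference.

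Of the other 36 Rhox genes, 24 were at 0 in all 7 libraries, and only Rhox12, Rhox2-ps and Rhox7-ps2 reached 1 TPM in some library. Rhox12, which lies between Rhox10 and Rhox13, had 6.15 and 4.80 TPM at day 7, from 26 and 27 reads, and no read in any day 21 library. The pseudogene Rhox2-ps had no read at day 7 and in 4F replicate 1, but 13.6 and 5.92 TPM in 4F replicates 2 and 3, from 19 and 8 reads, and 0.533 and 0.550 TPM in the 8F libraries, from 1 read each. In 4F replicate 2 it stood near Rhox1, at 14.6 TPM, and above Rhox10. Rhox7-ps2, also a pseudogene, had 6 reads in 4F replicate 3 alone. Rhox8, a gene of Sertoli cells with 95.1% private stretches, was at 0 in all libraries.

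The 2 factor sets at day 21 were compared to ask whether the levels of Rhox genes differed between them. The 4F and 8F cells are separate lines, and the 8F cells carry a reporter. Effects of the 4 added factors, the line and the reporter cannot be told apart. None of the 6 members passed FDR 0.05 (0 of 6 with limma, 0 of 6 at an unadjusted p under 0.05 and 0 of 6 with voom), against 8.37% of the 21780 genes tested in this comparison (3.95% higher and 4.41% lower in 8F). Rhox6 and Rhox13 had no read in either group, and Rhox5 and Rhox9 had at most 5 reads in a library, so a difference in these 4 was not detectable at this depth. They passed the filter on low values through the day 7 libraries alone. The choice for loss at day 21 also favored low values of Rhox6 and Rhox9 in both groups. The count of 0 of 6 thus speaks only of Rhox1 and Rhox10.

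For the 2 detectable genes the intervals were wide. Rhox1 differed between 8F and 4F by -0.27 on the log2(TPM + 1) scale (SE 0.47, 95% interval -1.39 to 0.85, limma adjusted p = 0.813), with means of 8.14 ± 4.15 TPM (SD, n = 2) in 8F and 10.1 ± 4.60 TPM (SD, n = 3) in 4F. Rhox10 differed by 0.69 (SE 1.38, 95% interval -2.61 to 3.99, limma adjusted p = 0.842), with means of 23.4 ± 10.5 TPM (SD, n = 2) in 8F and 26.2 ± 22.3 TPM (SD, n = 3) in 4F. The mean TPM and the mean log2 value of Rhox10 differed in sign because of 4F replicate 2, and without that library its difference was -0.77 (limma adjusted p = 0.559). That of Rhox1 was 0.02 without the same library and 0.21 without 8F replicate 2. Both signs thus rested on single libraries.

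Within 500 kb of the outermost Rhox genes lie 24 other protein-coding genes, of which 19 had reads at both days and 3 were at 0 in all 7 libraries. Of the 17 tested, 5 were higher and 3 lower at day 21 than at day 7 in 4F-mini-oocytes at FDR 0.05, while 25.3% of all genes tested were higher and 15.3% lower. The 4 tested neighbors that lie between Rhox genes, Btg1b, Btg1c, Zbtb33 and Tmem255a, were all short of the threshold. Zbtb33, which encodes the methyl-CpG binding protein Kaiso, had 18.0 and 15.8 TPM at day 7 and 19.1 to 32.1 TPM at day 21. None of the 17 was at 0 in all day 21 libraries. With median-of-ratios scaling the neighbor counts were 3 higher and 3 lower, with quantile normalization 3 and 4, and with voom on recovered reads 2 and 4.

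The largest difference between the days among these neighbors was that of Rpl39, a gene of the large ribosomal subunit. It had 234 and 195 TPM at day 7, 8.41, 23.0 and 7.40 TPM in 4F and 103 and 91.8 TPM in 8F at day 21. The 4F libraries lay below all others. Its log2 difference was -4.11 between the days in 4F (SE 0.44, adjusted p = 6.66e-04) and 2.99 between 8F and 4F (adjusted p = 0.0139), and the second call was lost without either 8F library (adjusted p up to 0.163).

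**Figure D3:**
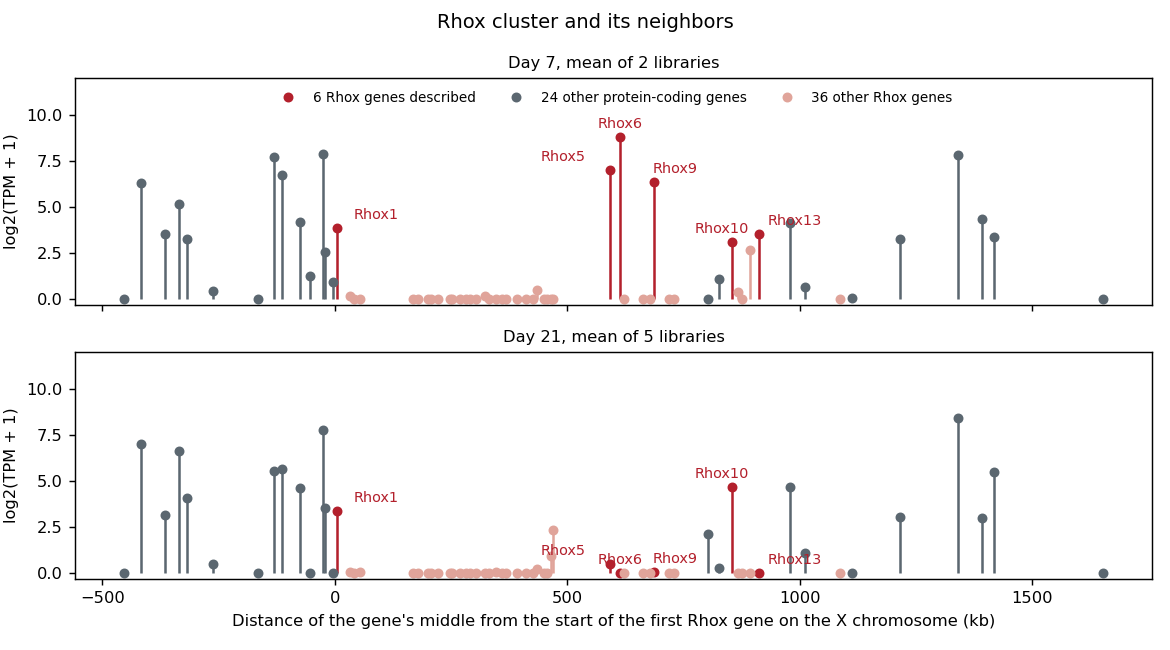
Mean TPM, drawn as log2(TPM + 1), at day 7 (2 libraries, above) and day 21 (5 libraries, below) of the 42 Rhox genes and 24 other protein-coding genes within 500 kb, by distance in kb from the start of the first Rhox gene. Rhox5, Rhox6, Rhox9 and Rhox13 are near 0 at day 21, Rhox1 and Rhox10 are not, and most of the flanking genes that were detected at day 7 were detected at day 21.

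Across all genes, the split of calls between the days moved with the scaling. In TPM 62.4% of the genes past FDR 0.05 were higher at day 21 in 4F, against 48.6% after median-of-ratios scaling, 54.2% after quantile normalization and 37.3% with voom. The median log2 difference of all genes tested was 0.168 in TPM and -0.060, 0.094 and -0.324 in these 3 settings. The falls of Rhox6, Rhox9, Rhox5 and Rhox13 kept their sign in all of them.

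Of 40 other listed homeobox genes of the paired class 14 were tested, and 9 were higher and 1 lower at day 21 than at day 7 in 4F, beside 25.3% higher and 15.3% lower over all genes. Of the 9, Gsc, Isx, Pax6, Sebox and Shox2 were under 1 TPM in both day 7 libraries and so passed the filter through day 21 alone, and the gene that was lower passed it through day 7 alone. The 3 largest rises were in the oocyte-specific homeobox genes Obox1, Obox2 and Obox5, by 6.47, 4.85 and 3.84 on the log2(TPM + 1) scale (adjusted p = 0.00277, 0.00180 and 4.59e-05). These are members of a family of near copies, so reads may be missing or split between them. The 1 gene that fell was Esx1, an X-linked homeobox gene known from the placenta and the testis, with 51.4 and 33.1 TPM at day 7 and 0 to 0.696 TPM at day 21 (log2 difference -5.15 in 4F, SE 0.45, adjusted p = 3.22e-04). The counts were 9 and 1 after median-of-ratios scaling and after quantile normalization and 8 and 1 with voom. A pseudocount of 5 TPM, or leaving out either day 7 library or 8F replicate 2, gave 5 rises, and leaving out 8F replicate 1 gave 6.

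Germline genes that promoter methylation silences in the soma did not share a direction. Of the 19 tested, 6 were higher, 1 was lower and 12 were short of the threshold at day 21 in 4F (median log2 difference -0.03), and over all genes 25.3% were higher and 15.3% lower. The gene that fell was Taf7l, which encodes a germ cell form of a TFIID subunit, with 29.1 and 42.3 TPM at day 7 and 0 to 0.0764 TPM at day 21 (log2 difference -5.17, SE 0.36, adjusted p = 1.45e-04). Taf7l passed the filter through day 7 alone. The largest rises were in Brdt, a bromodomain gene of male germ cells (2.88, adjusted p = 1.64e-04), Asz1, a piRNA pathway gene (2.44, adjusted p = 0.0275), and Tuba3a, an alpha-tubulin gene of the testis (1.14, adjusted p = 0.0473). The call of Asz1 was lost in 9 of 17 other settings (adjusted p up to 0.147, without day 7 replicate 1) and that of Tuba3a in 13, and for both these included the omission of 4F replicate 1, 4F replicate 2 or either 8F library. After median-of-ratios scaling or quantile normalization 3 of the list were higher and 1 lower, and with voom 2 were higher and 2 lower.

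Between the factor sets at day 21, 4 of the 19 were lower in 8F and none was higher, beside 4.41% lower over all genes. Among these 4, the largest differences were those of Dazl, an RNA-binding protein gene of germ cells (-3.02, adjusted p = 0.0139), Slc25a31, which encodes an ADP/ATP carrier of germ cells (-0.94, adjusted p = 0.0448), and Ddx4, an RNA helicase gene of germ cells (-0.90, adjusted p = 0.0198). Some genes of the list that were short of the threshold, such as Sycp3 (-1.70), differed by more than Slc25a31. Dazl had 67.8, 103 and 47.5 TPM in 4F and 11.9 and 4.77 TPM in 8F. No gene of this list was past the threshold when either 8F library was left out, where the adjusted p of Dazl was up to 0.112, and the call of Slc25a31 was lost in 14 of 17 other settings.

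Among genes of DNA methylation and silencing, rises outnumbered falls. Of 19 genes tested 10 were higher and 2 lower in 4F than at day 7, beside 25.3% and 15.3% over all genes, and the other scalings gave 8 or 9 higher and 4 to 6 lower. Dnmt1, the maintenance methyltransferase, rose by 3.65 on the log2(TPM + 1) scale (adjusted p = 8.21e-05), from 346 and 527 TPM at day 7 to between 4894 and 5905 TPM in 4F at day 21. Dnmt3l, a cofactor of de novo methylation, rose by 3.36 (adjusted p = 5.96e-04) and Tet3, an oxidase of methylcytosine, by 3.35 (adjusted p = 1.71e-04). Dnmt3l was under 1 TPM in both day 7 libraries and so passed the filter through day 21 alone. The falls were those of Mga (-0.85, adjusted p = 0.00934) and Ehmt2 (-0.84, adjusted p = 0.0230), which encode a repressor of germline genes and a histone H3 lysine 9 methyltransferase. The call of Ehmt2 was lost without either day 7 library and without either 8F library (adjusted p up to 0.121), and that of Mga without day 7 replicate 1 (adjusted p = 0.0599). Between the factor sets, H1f0 (-1.29, adjusted p = 0.0233) and Mga (-0.93, adjusted p = 0.0281) were lower in 8F, and neither passed when either 8F library was left out (adjusted p up to 0.228 and 0.223). Methylation itself was not measured in these libraries.

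Among factors described as regulators of Rhox5, 7 were tested, and 2 were lower, none was higher and 5 were short of the threshold at day 21 in 4F, beside 15.3% lower and 25.3% higher over all genes. With voom 4 were lower. Gabpa, an ETS factor gene, fell from 96.3 and 98.5 TPM at day 7 to between 28.8 and 32.7 TPM in 4F and 17.2 and 17.7 TPM in 8F (log2 difference in 4F -1.63, adjusted p = 2.14e-04). It was also lower in 8F than in 4F (-0.78, adjusted p = 0.0189), a call that was lost without either 8F library and without 4F replicate 1. Elk1, another ETS factor gene, fell by 1.19 (adjusted p = 0.0132). Gabpb1, whose product pairs with that of Gabpa, differed by 1.00 (adjusted p = 0.0520), and Ets1, Ets2, Sp1 and Sp3 by -0.55, -0.15, -0.08 and -0.08 (adjusted p of at least 0.426).

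**Figure D4:**
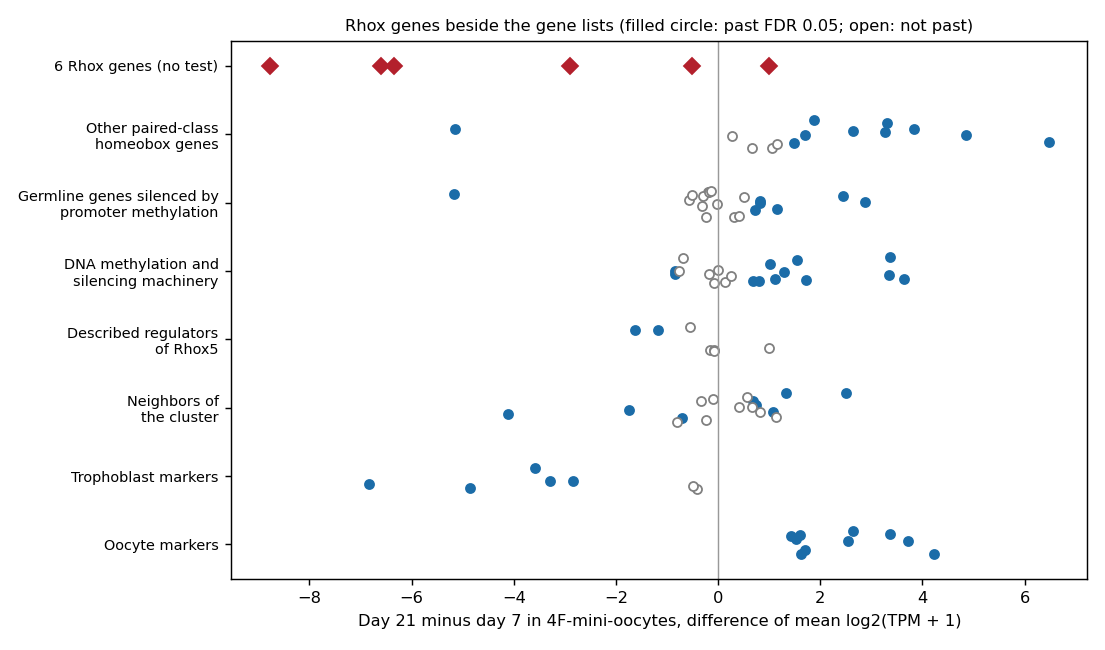
Points show, for 4F-mini-oocytes, mean log2(TPM + 1) at day 21 minus that at day 7, for the 6 Rhox genes (diamonds, not tested because they were chosen on these libraries) and for the tested genes of 7 lists (circles, filled when past FDR 0.05). Rhox6, Rhox5 and Rhox9 lie at -8.77, -6.59 and -6.35, and Esx1, Taf7l and the trophoblast marker Krt18 are the list genes nearest to them.

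Some trophoblast markers were, like Rhox6, Rhox9 and Rhox5, higher at day 7. Of 13 listed markers 7 were tested, and 5 fell between day 7 and day 21 in 4F, while none rose, beside 15.3% lower and 25.3% higher over all genes. Of the 5, Gata3, Hand1 and Plet1 were under 1 TPM in every day 21 library and so passed the filter through day 7 alone. The summed level of the 13 was 1142 and 1625 TPM at day 7, 57.8 to 149 TPM in 4F and 39.0 to 47.3 TPM in 8F at day 21. Most of it came from the keratins Krt8 and Krt18, with 1096 and 1521 TPM at day 7, and the other 11 markers summed to 46.1 and 103 TPM at day 7 and to 12.6 to 22.4 TPM at day 21. Krt18, a keratin of simple epithelia, had 436 and 658 TPM at day 7 and 0.246 to 8.81 TPM at day 21, and Krt8, its partner, 660 and 863 TPM at day 7 and 24.4 to 128 TPM at day 21. Hand1, a transcription factor gene of trophoblast giant cells and mesoderm, had 12.0 and 63.6 TPM at day 7 and at most 0.172 TPM at day 21. Eomes and Tfap2c, also tested, were short of the threshold. The defining markers Cdx2, Elf5, Prl3d1, Prl2c2 and Tpbpa were at 0 in both day 7 libraries. At day 21, Prl3d1 stayed at 0. In single 4F libraries Prl2c2 reached 4.59 TPM, Tpbpa 3.35 TPM, Elf5 1.13 TPM and Cdx2 0.509 TPM. In pooled cells, fewer cells of a type and less RNA per cell cannot be told apart, and the part of other cells in the day 7 levels of Rhox genes was not tested.

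The other marker lists moved less uniformly between day 7 and day 21 in 4F, where 25.3% of all genes tested were higher and 15.3% lower. Of the embryonic stem cell markers 3 of 8 tested rose and 1 fell. The summed level was 252 and 401 TPM at day 7 and 882 to 1228 TPM at day 21. Most of it came from Dppa5a, with 164 and 301 TPM at day 7 and 548 to 1076 TPM at day 21. Nanog was at 0 and 0.940 TPM at day 7. Of the primordial germ cell markers 1 of 6 rose and 1 fell, with Prdm14 at 0 at day 7. Of the extraembryonic endoderm markers 2 of 7 rose and 2 fell, with Gata6 and Sox17 at or under 0.297 TPM in every library. Of the spermatogonium markers 3 of 8 rose and 1 fell, and of the Sertoli cell markers 1 of 3 rose and 1 fell. Sohlh1, which rose, passed the filter through day 21 alone, and Clu, which fell, through day 7 alone. Of the granulosa cell markers none of 4 passed, with a summed level of at most 16.8 TPM in any library. In none of these lists did falls past the threshold outnumber rises.

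Genes with levels most like those of Rhox6 and Rhox9 over the 7 libraries were taken by the root mean square difference of log2(TPM + 1). Outside the Rhox family, the 5 protein-coding genes nearest to Rhox6 were Phlda2 (0.666), Fabp3 (0.853), Nrk (1.12), Krt19 (1.43) and 3830417A13Rik (1.47). Phlda2, an imprinted gene, had 163 and 265 TPM at day 7 and at most 0.616 TPM at day 21. Outside the family, the nearest to Rhox9 were Nrk (0.216), S100a10 (0.249), 3830417A13Rik (0.325), Mt1 (0.383) and Krt19 (0.409). Nrk, an X-linked kinase gene, had 81.8 and 126 TPM at day 7 and at most 0.0745 TPM at day 21. Rhox6 and Rhox9 themselves differed by 1.31 in TPM, where 3 genes outside the family were nearer to Rhox6 than Rhox9 was. That order depends on the exon length by which the reads of Rhox9 were divided. Which Rhox9 transcript was present was not tested, so nothing is read from it. The likeness is a description of 7 libraries, among which day and cell number differ between the groups.

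Promoters were read for 4 of the 6 members, from RefSeq (GRCm38.p6), as the 250 bases before and 50 bases after the start. Rhox10, which kept its reads at day 21, and Rhox13, which lost them, lie on the same strand and are printed with every CG dinucleotide in capitals:
Rhox10, chrX:38066225-38066524: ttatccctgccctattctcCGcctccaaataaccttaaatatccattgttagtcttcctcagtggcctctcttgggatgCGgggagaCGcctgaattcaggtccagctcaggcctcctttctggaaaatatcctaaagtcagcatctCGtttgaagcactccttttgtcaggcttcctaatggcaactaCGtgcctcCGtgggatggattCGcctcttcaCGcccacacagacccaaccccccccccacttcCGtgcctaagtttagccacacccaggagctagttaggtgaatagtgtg
Rhox13, chrX:38120590-38120889: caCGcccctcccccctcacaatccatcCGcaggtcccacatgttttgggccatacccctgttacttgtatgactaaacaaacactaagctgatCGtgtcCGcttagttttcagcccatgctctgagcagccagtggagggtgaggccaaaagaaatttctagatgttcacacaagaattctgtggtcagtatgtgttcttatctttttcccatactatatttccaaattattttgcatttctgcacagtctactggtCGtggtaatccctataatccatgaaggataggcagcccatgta

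The Rhox10 window holds 9 CG dinucleotides and that of Rhox13 holds 5. The Rhox5 window, at chrX:37754358-37754657 and far upstream of the GENCODE start of the gene, also holds 5, and that of Rhox1 holds 0. The median over the 32851 promoters of the same length is 7, and 94.6% of them hold at least 1. Of these 4 members, the 2 that stayed had 0 and 9 CG dinucleotides and the 2 that were lost had 5 each. No window was available for Rhox6 and Rhox9. Whether the number of CG dinucleotides bears on the loss was not tested. None of the 4 windows holds TAATTA, a core of paired-type homeodomain sites found on either strand in 5.29% of all promoters, or TATAAA, found in 13.6%. The E-box letters CANNTG occurred 2, 3, 0 and 1 times in Rhox1, Rhox5, Rhox10 and Rhox13, and in 72.3% of all promoters. These are matches of letters within 300 bases and were not measured as binding sites.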

How the data were processed

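RNA of 7 mini-oocyte samples was read with the SMART-seq Stranded kit, with the groups taken from the sample titles. The authors' steps were trimming (Trim Galore), alignment to the mm10 genome (HISAT2) and removal of ribosomal reads. They counted unique alignments over GENCODE vM25 with featureCounts, splitting reads shared by overlapping genes, and deposited TPM. The strand setting is not given in the sources used here. The methods name different instruments with different read lengths, but not which library ran on which, so a batch could not be examined. How read length bears on the unique counting of near copies was not tested.

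The test was limma (3.58.1, under R 4.3.3) on values of log2(TPM + 1), with all 7 libraries and 3 groups in 1 fit, two-sided, with a trended variance prior and Benjamini-Hochberg adjustment (FDR 0.05) over the 21780 genes that reached 1 TPM in 2 or more libraries. The methods use a count model, which TPM do not allow. Reads per gene were recovered from the steps of the deposited TPM and GENCODE vM21 exon lengths, where 98.1% of the gene identifiers matched. Of the low values, 78.5% to 83.4% came out as whole reads and 99.0% to 99.6% as sixths, within 0.01 of a read. Depth was 9506135 to 18027834 reads per library.

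The members and the lists of genes were chosen with earlier results of these data known. Named are the 6 members, Rhox genes that reach 1 TPM, up to 3 called genes per direction and list with the largest difference, neighbors within 500 kb and the 5 protein-coding genes outside the family nearest to Rhox6 and to Rhox9. The motifs, the lengths of 50 and 150 bases, the printed coding stretches and single named neighbors and markers were chosen after values were seen. Alternatives changed the pseudocount, filter, scaling, prior, samples, replicate block and model, or left out 1 library. The fit was tested on simulated data.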

Additional observations from a re-analysis of the deposited data

How the results depend on the processing

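Of 763 values recomputed under 17 alternatives, 637 stayed the same or close to the main fit. Counts of called genes, in total or per list, fell beyond a set margin in 80 cases and rose beyond it in 19. Of the members' differences from day 7, which carry no test, 24 moved beyond the spread. The side of the threshold was judged for only 34 values, those of Rhox1 and Rhox10 between 8F and 4F. Of these, 31 kept their direction and side, and 3 reversed. The genes called between 8F and 4F at day 21 numbered 1822, and 994 without the trend in the prior. Leaving out 1 library gave 306 to 2221, with 943, 924 and 1021 without 4F replicate 1, 2 and 3 and 306 and 357 without 8F replicate 1 and 2. Between 8F at day 21 and day 7 the range was 4089 to 8281, the low end without an 8F library (4215 and 4089). The cause was not tested, although these fits hold fewer samples. The difference of Rhox1 between 8F and 4F ranged from -0.75 to 0.21 and reversed to 0.02 without 4F replicate 2 and to 0.21 without 8F replicate 2. That of Rhox10 ranged from -0.77 to 1.49 and reversed to -0.77 without 4F replicate 2.

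The size of a fall to 0 depends on the pseudocount by construction. With pseudocounts of 0.1 and 5 TPM the difference of Rhox6 from day 7 4F-mini-oocytes was -12.09 and -6.46 for both factor sets at day 21. With voom it was -12.51 for 4F and -12.74 for 8F. Those of Rhox9 were -9.65 and -4.10 in 4F and -8.83 and -4.07 in 8F, with quantile normalization -6.76 and -6.72, and with voom -11.35 and -10.17. Leaving out 1 library gave -9.21 to -8.33 for Rhox6 and, for Rhox9, -6.52 to -6.18 in 4F and -6.38 to -6.04 in 8F.

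With the replicate number as a block, 164 genes were called between 8F and 4F, 7241 between the days in 4F and 7037 between 8F and day 7. Deviations of same-numbered libraries correlated by -0.037 to 0.011. In groups of 2 libraries the deviations mirror each other, so these values cannot settle whether same-numbered samples share an induction. Under voom the share of calls higher in 8F than in 4F was 62.9%, and without the trend 61.1%, against 47.3%. Few reads limit Rhox5, Rhox9 and Rhox13 at day 21 and Rhox10 in 4F replicate 2.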

Other observations

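Of the 1958 protein-coding genes with at least 50 TPM in both day 7 libraries, 5 were under 1 TPM in all 5 day 21 libraries, and they were Nrk, Phlda2, Rhox6, Rhox9 and S100a10. Under 2 TPM were 7. Rhox6 and Rhox9 were chosen for this loss, so their presence here is no finding. S100a10, a calcium-binding protein gene, had 62.4 and 59.9 TPM at day 7 and at most 0.292 TPM at day 21. Both thresholds were chosen after the values were seen, and no test was made.

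Over the X chromosome as a whole, 138 of 503 tested protein-coding genes were higher and 94 lower at day 21 than at day 7 in 4F, with a median log2 difference of 0.14. Over the autosomes 4154 of 13441 were higher and 1989 lower, with a median of 0.26. This count was also added after the values were seen.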
